A study of Mus musculus with 4 samples.

Results

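The 10 immediate early AP-1 and Egr genes described here are Fos, Fosl2, Jun, Junb, Jund, Egr1, Ier2, Ier3, Atf3 and Zfp36, out of 14533 genes in the table of normalized counts. They were matched by Ensembl identifier to those symbols, and all 10 had a row. They were selected on measured values of this same contrast, since Fos and Jun had been seen to run against other genes that respond to ERK. Their differences between serum and 2i are therefore given as a description, with no test.

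Immediate early genes are induced within minutes of a signal and need no new protein for it. The signal usually travels through the ERK, p38 or JNK kinases to factors that already sit on the promoter, such as serum response factor with its Ets partners, and Creb and Atf proteins. Many of the products are transcription factors themselves. Fos and Jun proteins pair through leucine zippers to form AP-1, Atf3 is a related zipper protein induced by stress, and Egr1 is a zinc finger protein. The transcripts are usually short-lived, in part because AU-rich elements near their 3′ end recruit decay proteins such as Zfp36. Serum is the textbook stimulus of this response, and a block of MEK is the textbook way to silence the branch that runs through ERK.

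RNA came from mouse embryonic stem cells (ESCs) adapted for more than 20 days to serum medium (serum ESCs) or to a medium without serum that holds inhibitors of MEK and GSK3 (2i ESCs), both with LIF. Each group had 2 libraries, and all 4 carry the label late G1-phase, whereas the description of the series speaks of early G1-phase. Cells were sorted before RNA extraction, and the labels name neither a cell line nor a genotype for these libraries. In a bulk sample of this kind, fewer cells that express a gene and less RNA of it per cell cannot be told apart.

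The 4 libraries held between 18939401 and 26570098 whole reads. Protein-coding genes took from 46.9% of the normalized counts in serum replicate 1 to 76.3% in serum replicate 2, and the 10 most abundant genes of a library took 50.6% and 17.5% there. Replicates differed by a median of 0.53 on the log2 scale in serum and 0.76 in 2i. Of 8 ESC markers, all 8 were measured, with summed normalized counts of 57185 to 79797 in serum ESCs and 68646 to 90902 in 2i ESCs. Of 7 fibroblast markers, Thy1 and Col1a1 were measured, with sums of 193 to 230 in serum ESCs and 58.2 to 199.3 in 2i ESCs. Of 7 primitive endoderm markers, 4 were measured, with sums of 72.0 to 109 in serum ESCs and 256 to 332 in 2i ESCs, and the part of these cells in any difference below was not tested.

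The genes are compact. A span under 5000 bp was found for 8 of the 10, against 12.4% of the genes tested, and all 10 had at most 4 exons, against 21.3%. Jun, Junb, Jund and Ier2 each consist of 1 exon, as do 3.52% of the genes tested. The median transcript of the 10 was 2046 bp long with a GC content of 54.2%, and the corresponding medians over all genes tested were 3028 bp and 50.3%.

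Some of the 10 promoters held motifs known from the induction of immediate early genes, and no motif searched was common to all 10. Windows from 500 bases before to 100 bases after the annotated start were read from mouse genome build NCBIM37 (mm9), on both strands, for the 10 genes and for 11816 genes in all. Capitals mark the motif, and the sequences were chosen to show a serum response element, CRE-type sites near the start and a C/EBP-ATF composite site.
Fos, CArG box 309 bases before the start and a CRE core (chr12:86814505-86814566, plus strand): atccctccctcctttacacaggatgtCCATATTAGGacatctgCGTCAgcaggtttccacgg
Fos, CRE core 66 bases before the start (chr12:86814748-86814804, plus strand): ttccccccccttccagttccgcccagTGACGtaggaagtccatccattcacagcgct
Zfp36, CArG box 31 bases before the start (chr7:29164275-29164331, minus strand): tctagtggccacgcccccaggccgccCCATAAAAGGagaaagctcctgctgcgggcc
Jun, CRE variant 45 bases before the start (chr4:94718925-94718984, minus strand): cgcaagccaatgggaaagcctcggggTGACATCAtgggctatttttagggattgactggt
Ier2, full CRE 45 bases before the start (chr8:87186763-87186822, minus strand): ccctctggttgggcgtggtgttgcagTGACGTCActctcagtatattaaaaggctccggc
Atf3, C/EBP-ATF site 103 bases before the start (chr1:193007289-193007348, minus strand): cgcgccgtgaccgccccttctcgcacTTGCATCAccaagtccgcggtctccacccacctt

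The CArG box, which serum response factor binds, occurred in the windows of Fos, Egr1 and Zfp36 and in 2.66% of all windows. Egr1 held 5 such boxes, between 407 and 83 bases before its start. The full CRE, TGACGTCA, occurred in Ier2 and in 3.72% of windows. The variant TGACATCA, known from the Jun promoter as a site for Jun and Atf2 dimers, occurred in Jun and in 2.41% of windows. The C/EBP-ATF site, TGATGNAA, occurred in Jund and Atf3 and in 4.87% of windows.

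The other motifs were frequent in promoters at large. The CRE core TGACG, which also lies inside the full CRE, was present in 6 of 10 windows and 42.6% of all windows. The Ets core CCGGAA was present in 3 of 10 and 35.5%, and the Egr site GCGNGGGCG in Fosl2, Jun and Zfp36 and in 13.5% of windows. The AP-1 site TGANTCA occurred in Fos and in 10.6%, the TATA box TATAAA in Fos and Junb and in 17.5%, and CCAAT in 5 of 10 and 56.8%. The TATA boxes lay 33 bases before the start in Fos and 30 in Junb, and the CArG box of Zfp36 lay at a like distance, 31 bases. The letters alone do not tell which kind of site the latter is. A match describes the letters in these windows and says nothing of binding.

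The 3′ ends carry the other known mark of the class. ATTTA, the core of AU-rich elements, occurred in the 3′ UTR of 9 of the 10 genes, against 68.3% of annotated 3′ UTRs, with a median of 2.89 and 1.24 per kilobase. Ier2 was the exception. The nonamer TTATTTATT, the preferred site of Zfp36, occurred in 3 of the 10, Fos and Zfp36 among them, and in 7.61% of 3′ UTRs. It is shown for these in capitals below, in the letters of the genome.
Fos, nonamer at base 655 of 815 of the 3′ UTR: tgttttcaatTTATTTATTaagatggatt
Zfp36, nonamer at base 589 of 774 of the 3′ UTR: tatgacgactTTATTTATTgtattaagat

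The class did not move as a block between serum and 2i ESCs. Fos, Jun, Jund, Ier3 and Atf3 were higher in both 2i libraries than in either serum library. Fosl2, Junb, Egr1, Ier2 and Zfp36 overlapped between the groups. No gene of the 10 was higher in both serum libraries. Over the 10 genes the median log2 fold change, serum over 2i on log2(normalized count + 1), was -1.50, and it was -0.71 without serum replicate 1. The median over all 13005 genes tested was 0.0047.

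**Figure D1:**
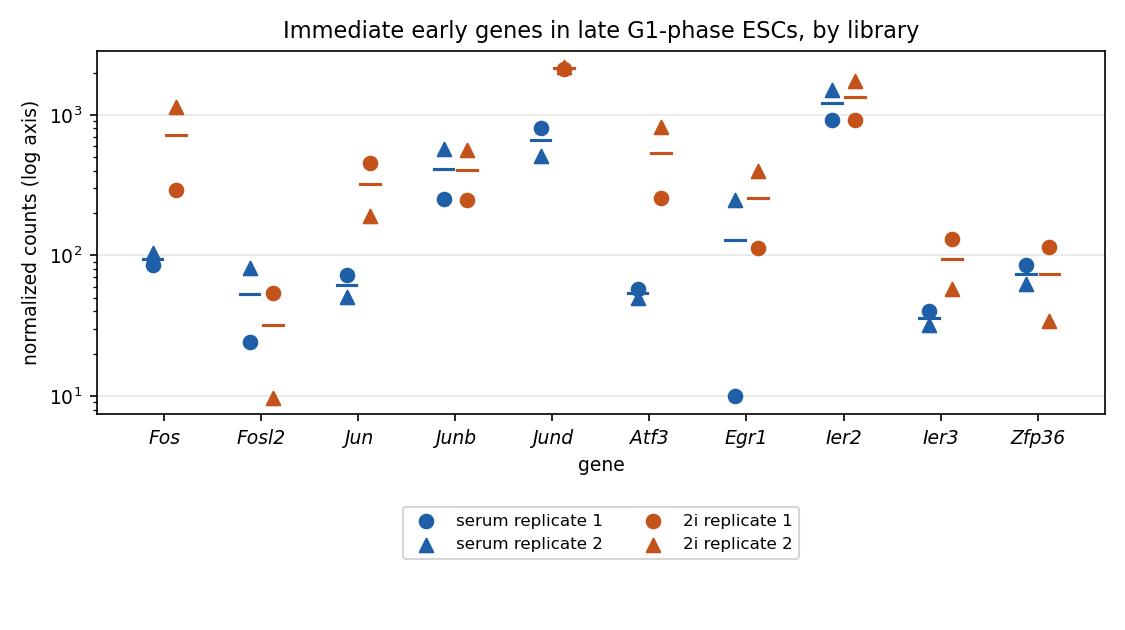
Normalized counts (log axis) of the 10 genes in each of the 4 libraries, with serum in blue and 2i in orange, replicate 1 as circles, replicate 2 as triangles and group means (n = 2) as bars. Both 2i points lie above both serum points for Fos, Jun, Jund, Atf3 and Ier3, while Egr1 in serum spans 10.01 to 248.

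Fos (ENSMUSG00000021250, chr12:86814840-86818223) encodes the founding partner of Jun in AP-1. Serum replicates 1 and 2 had 85.0 and 104 normalized counts, against 292 and 1145 for the 2i replicates in the same order. Both 2i libraries were above both serum libraries, but they differed 3.92-fold between themselves. The means were 94.5 ± 13.4 in serum and 718 ± 603 in 2i (SD, n = 2), a ratio of 7.60. On the log2 scale Fos differed by -2.61 ± 0.73 (SE). It was -1.62 without 2i replicate 2, the library with the highest Fos.

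Fosl2 (ENSMUSG00000029135, chr5:32438845-32460204) encodes a Fos-related protein that is usually found late in the response. It had 24.0 and 81.6 normalized counts in serum, against 54.0 and 9.70 in 2i. The groups overlapped, and the 9.70 rested on 10 reads, with a 95% Poisson interval of 4.65 to 17.8 normalized counts that covers counting error only. Its log2 fold change was 0.91 ± 1.43 (SE), smaller than its error. It turned to -0.27 without 2i replicate 2.

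Jun (ENSMUSG00000052684, chr4:94715725-94718913) encodes the most potent activator among the Jun proteins, and its gene is activated by its own product. It had 72.0 and 50.5 normalized counts in serum, against 457 and 192 in 2i. The higher 2i library was replicate 1 here, whereas it was replicate 2 for Fos. The means were 61.3 ± 15.2 and 324 ± 187 (SD, n = 2), a ratio of 5.29, and the log2 fold change was -2.28 ± 0.67 (SE).

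Jund (ENSMUSG00000071076, chr8:73221638-73224515) encodes the most steadily expressed Jun protein, a weaker activator linked with slow growth. It had 808 and 506 normalized counts in serum, against 2105 and 2180 in 2i. Its 2i values were the closest pair of the 10 genes, 1.04-fold apart, and 3.80% of all genes tested had a smaller difference between the 2i libraries. The means were 657 ± 214 and 2142 ± 52.5 (SD, n = 2), a ratio of 3.26, and the log2 fold change was -1.74 ± 0.45 (SE), the smallest error of the 10. Gm11175 is annotated inside Jund on the other strand, and 82.6% of the 43-base words of Jund occurred in no transcript of another protein-coding gene. Gm11175 had 2.00 and 0 normalized counts in serum, against 117 and 168 in 2i, so it was likewise higher in 2i, and reads of the pair cannot be assigned without strand. With both added together, Jund differed by -1.83. Genes on the other strand are annotated over exons of Jun (BC042782) and Egr1 (Gm17507) as well. What this does to the values of Jun and Egr1 was not tested.

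Junb (ENSMUSG00000052837, chr8:87500811-87502617) encodes the Jun protein that can oppose Jun at many promoters. It had 250.1 and 574 normalized counts in serum, against 249 and 558 in 2i. The values followed the replicate number and not the medium. Replicate 2 was 2.30-fold above replicate 1 in serum and 2.24-fold in 2i. The log2 fold change was 0.02 ± 0.64 (SE), with -0.57 without serum replicate 2, -0.56 without 2i replicate 1 and -0.10 with upper quartile scaling.

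Atf3 (ENSMUSG00000026628, chr1:192994175-193007219) encodes a zipper protein that pairs with Jun proteins and is a common end point of stress signals. It had 58.0 and 49.6 normalized counts in serum, against 254 and 824.5 in 2i. The groups lay far apart, with the lower 2i value 4.38-fold above the higher serum value, the widest gap of the 10 genes. The means were 53.8 ± 5.98 and 539 ± 403 (SD, n = 2), a ratio of 10.03. The log2 fold change was -3.07 ± 0.71 (SE), and -2.22 without 2i replicate 2, the higher of the 2i libraries.

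Egr1 (ENSMUSG00000038418) encodes a zinc finger factor that is commonly read as a marker of ERK activity. It had 10.01 and 248 normalized counts in serum, against 112 and 397 in 2i. Serum replicate 2 lay between the 2i libraries, and serum replicate 1 was below all others. The serum libraries alone differed 24.8-fold, more than for 97.3% of the genes tested. Counting error does not span this gap, since the 10 reads of serum replicate 1 have a 95% Poisson interval of 4.80 to 18.4 normalized counts, and the 255 reads of serum replicate 2 one of 218 to 280.2. The log2 fold change was -2.02 ± 1.49 (SE), but leaving out serum replicate 1 gave 0.23 and leaving out serum replicate 2 gave -4.27. Its direction between serum and 2i thus rests on 1 library.

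Ier2 (ENSMUSG00000053560, chr8:87185230-87186751) encodes a small nuclear immediate early protein. It had 924.5 and 1504 normalized counts in serum, against 919 and 1751 in 2i. As for Junb, replicate 2 was above replicate 1 in either medium, 1.63-fold in serum and 1.91-fold in 2i. The log2 fold change was -0.11 ± 0.53 (SE), and it was 0.25 without serum replicate 1, 0.36 without 2i replicate 2 and 0.32 with a correction for GC content and length.

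Ier3 (ENSMUSG00000003541, chr17:35958629-35959868) encodes a protein of the survival and stress response that binds ERK. It had 40.0 and 32.1 normalized counts in serum, against 132 and 57.2 in 2i. The groups did not overlap, although the lower 2i value was only 1.43-fold above the higher serum value. The means were 36.05 ± 5.62 and 94.5 ± 52.8 (SD, n = 2), a ratio of 2.62, and the log2 fold change of -1.26 ± 0.91 (SE) was little larger than its error. It was -0.66 without 2i replicate 1.

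Zfp36 (ENSMUSG00000044786, chr7:29161803-29164274) encodes tristetraprolin, the decay protein that binds the nonamers shown above, its own included. It had 86.0 and 62.2 normalized counts in serum, against 114 and 34.0 in 2i. Both serum values lay between the 2i values, and the group means were nearly equal, at 74.1 ± 16.9 and 74.1 ± 56.7 (SD, n = 2). The log2 fold change was 0.23 ± 0.91 (SE), with -0.64 without 2i replicate 2, -0.0056 without serum replicate 1 and -0.04 with edgeR.

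Across the genes tested, groups that did not overlap were common, where any gap counts, however small. How many genes had gaps as wide as those of these 5 was not counted. Of the 13005 genes tested, 20.5% had both serum values above both 2i values and 19.4% had both 2i values above both serum values. Since the contrast was used to choose the 10 genes, nothing is read from their 5 against that share. With limma, 0% of the genes tested were called higher in serum and 0.0154% higher in 2i, at an adjusted p under 0.05 and a 2-fold change. At an unadjusted p under 0.05, 386 genes were higher in serum and 390 in 2i. DESeq2 on the whole reads called 0.592% of the genes higher in serum and 1.35% higher in 2i, and edgeR called 0.

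The replicates can also be compared number by number, since both groups have a replicate 1 and a replicate 2. Fos was higher in 2i by 1.77 for replicate 1 and by 3.45 for replicate 2 (log2 scale), and Atf3 by 2.11 and 4.03. Jund differed in the same sense, by 1.38 and 2.10. Jun had the opposite order, with 2.65 and 1.91, as did Ier3 with 1.70 and 0.82. Egr1 was higher in 2i by 3.36 for replicate 1 and by 0.68 for replicate 2. Fosl2 changed sign between the numbers, at 1.14 and -2.95, and Zfp36 did so at 0.40 and -0.85.

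**Figure D2:**
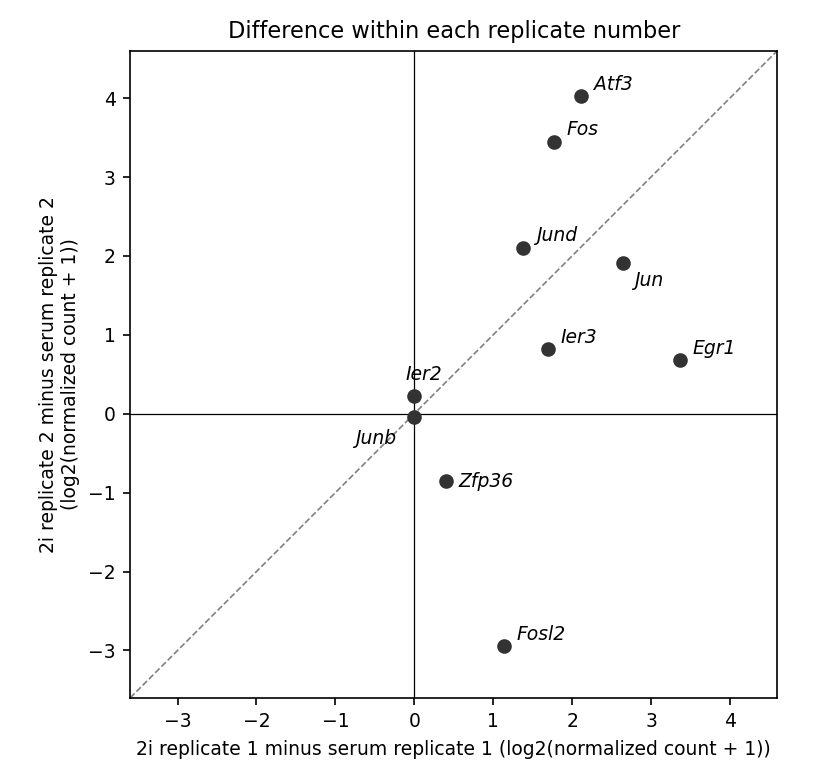
Difference of 2i minus serum on log2(normalized count + 1) for replicate 1 (horizontal) and replicate 2 (vertical), 1 point per gene, with equality as a dashed line. Atf3 and Fos lie above the line in the upper right, Jun, Ier3 and Egr1 below it, Junb and Ier2 near 0, and Fosl2 and Zfp36 in the lower right, where the replicates disagree in sign.

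Patterns over the 4 libraries were compared by Euclidean distance between log2 values, each centred on its own mean. This measure rests on 4 points that share the libraries, so it is a description. The closest pair among the 10 genes was Junb and Ier2, at 0.407, and Fos and Atf3 followed at 0.619. Junb and Ier2 also lie near each other, on chromosome 8. Jun was nearest to Ier3, at 1.03, and to Jund, at 1.07, whereas Fos and Jun were 2.36 apart. Egr1 was at least 3.04 from every other gene of the 10.

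Among protein-coding genes outside the 10, the nearest to Fos were Dmrta2 (0.187), Pdcl2 (0.289) and Hspa1b (0.352). Dmrta2 and Pdcl2 had few reads in serum, with at most 20.4 and 15.6 normalized counts. Hspa1b encodes an inducible Hsp70 heat shock protein. It had 142 and 195 normalized counts in serum, against 525 and 1560 in 2i, the same order of libraries as Fos. The nearest to Jun were Lipg (0.271), Slc16a14 (0.289) and Inhbe (0.321), and the nearest to Egr1 were Dbndd2 (1.07), Bnipl (1.26) and Naalad2 (1.42).

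Levels of different genes were compared per kilobase of exon within a library. Ier2 had the highest mean level in both media, at 798 in serum and 877 in 2i normalized counts per kilobase. In serum, Jund and Junb followed at 228 each and overlapped. Egr1 (41.6), Zfp36 (41.4) and Fos (40.2) came next and overlapped in turn, then Ier3 (31.9) and Atf3 (27.1), which overlapped as well, then Jun (19.2) and last Fosl2 (9.02). Fos lay above Ier3, and Atf3 above Jun, in both serum libraries. This order is one of means, and for Egr1 the libraries disagreed. Egr1 was the lowest of the 10 genes in serum replicate 1, at 3.23, below Fosl2, but had 79.95 in serum replicate 2.

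In 2i, Jund was at 744 and overlapped with Ier2. Fos at 305 and Atf3 at 272 came behind Jund and ahead of Junb at 223. The levels then ran through Jun (102), Ier3 (83.6), Egr1 (82.1) and Zfp36 (41.3), and neighbours from Fos down to Zfp36 overlapped in their 2 values. Fosl2 was last at 5.44, below both values of Zfp36.

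The make-up of AP-1 transcripts can be given as shares within a library, which no library scaling changes. Jun took 5.11% and 3.11% of the summed level per kilobase of Jun, Junb and Jund in serum, and 14.1% and 5.35% in 2i. Junb took 31.3% and 62.4% in serum and 13.6% and 27.4% in 2i. Jund took 63.6% and 34.5% in serum and 72.2% and 67.3% in 2i. Both 2i libraries thus had a larger share of Jun and Jund and a smaller share of Junb than both serum libraries. For Jun the gap was very narrow, at 5.35% in 2i replicate 2 against 5.11% in serum replicate 1. The summed level of the Jun genes was 442 and 510 per kilobase in serum, against 1013 and 1126 in 2i.

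Fos made up most of the Fos family transcripts in each library, with 89.8% and 76.0% of Fos plus Fosl2 in serum and 93.1% and 99.7% in 2i. Fosb and Fosl1 were not analysed here. Per 100 units of the Jun genes there were 9.11 and 11.4 units of Fos plus Fosl2 in serum, against 13.2 and 43.4 in 2i, so the Jun genes exceeded the Fos genes in every library. The largest ratio was that of 2i replicate 2.

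**Figure D3:**
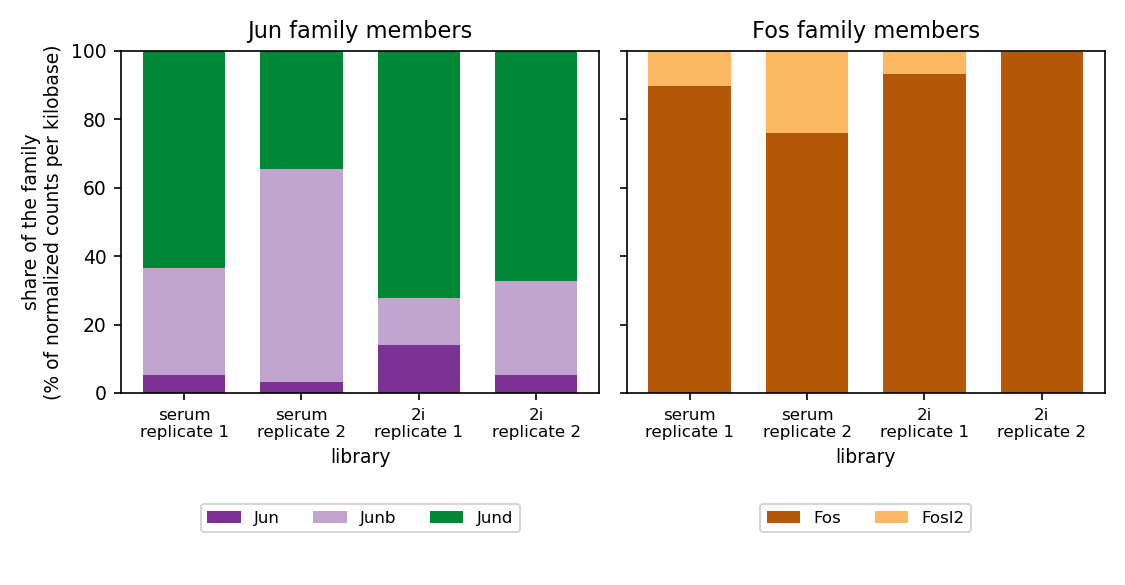
Share of each gene in the summed normalized counts per kilobase of the Jun family (left) and the Fos family (right), in % within each of the 4 libraries. Jund takes 72.2% and 67.3% of the Jun family in 2i against 63.6% and 34.5% in serum, and Fos takes 76.0% to 99.7% of the Fos family.

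Other genes of the class were described from lists, with serum over 2i fold changes. Of the other AP-1 and small Maf genes, 6 were measured. Of these, 1 was higher in both serum libraries and 1 in both 2i libraries, beside 20.5% and 19.4% over all genes. The median of the 6 was -0.27, between -0.50 and 0.02 when each library was left out, the latter without serum replicate 1. It was 0.13 with the filter at a mean of 200. Atf2, a partner of Jun, was the highest, with 1079 and 1490 normalized counts in serum, against 423 and 514 in 2i (log2 1.44 ± 0.44 SE, adjusted p = 0.754 with limma). Jdp2, a repressor that pairs with Jun proteins, was the lowest, with 262 and 191.5 in serum, against 354 and 448 in 2i (-0.83 ± 0.48). Of the Egr corepressors, Nab1 (0.97 ± 0.70) and Nab2 (-0.07 ± 0.61) overlapped between the groups, and Egr2, Egr3 and Egr4 were not analysed here.

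A further 23 immediate early genes had a median of -0.63. It was -0.35 without serum replicate 1, -0.38 without 2i replicate 1, -0.36 without 2i replicate 2 and -0.30 with a correction for GC content and length. Of these, 11 were higher in both 2i libraries and 3 in both serum libraries, against the 19.4% and 20.5% over all genes. The genes higher in serum were Myc, Trib1 and Nr4a1. Myc had 131 and 657 normalized counts in serum, against 7.27 and 4.85 in 2i, so both groups lay far apart (5.41 ± 1.17 SE, limma adjusted p = 0.754). At the other end, Gadd45b, a stress sensor of the p38 and JNK branch, had 63.0 and 81.6 in serum, against 290 and 373 in 2i (-2.18 ± 0.55, limma adjusted p = 0.754). DESeq2 called both Myc and Gadd45b, the fit with the replicate number as a block called Myc, and edgeR called neither. The genes higher in both 2i libraries included Rhob, Ctgf, Dusp1, Klf2, Klf4 and Klf6. The gap between the groups varied among them. The lower 2i value was 2.58-fold above the higher serum value for Ctgf and 2.45-fold for Rhob, but only 1.14-fold for Klf2 and 1.05-fold for Klf4.

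ERK feedback and Ets target genes are the kind of gene against which Fos and Jun had been seen to run when the 10 genes were selected, so their direction is a description as well. Of 13 genes, 8 were higher in both serum libraries and 0 in both 2i libraries, beside 20.5% and 19.4% over all genes. Only 2 of the 13, Dusp4 and Spry1, had a mean log2 value that was lower in serum, and only slightly. The median was 0.80, with 1.49 without serum replicate 1 and 1.66 with a filter at a mean of 200. Spry4, an inhibitor of receptor signalling to ERK, had 536 and 3973 normalized counts in serum, against 59.2 and 15.5 in 2i (5.53 ± 1.07 SE, limma adjusted p = 0.754). Dusp6, a phosphatase of ERK, had 603 and 1288 in serum, against 240 and 325 in 2i (1.66 ± 0.54). The lowest, Spry1, overlapped, with 79.0 and 160 against 130 and 105. Limma called 0 genes of this list, 5 had an unadjusted p under 0.05, and DESeq2 called Spry4. With the replicate number as a block, 2 were called, Spry4 and Etv4.

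**Figure D4:**
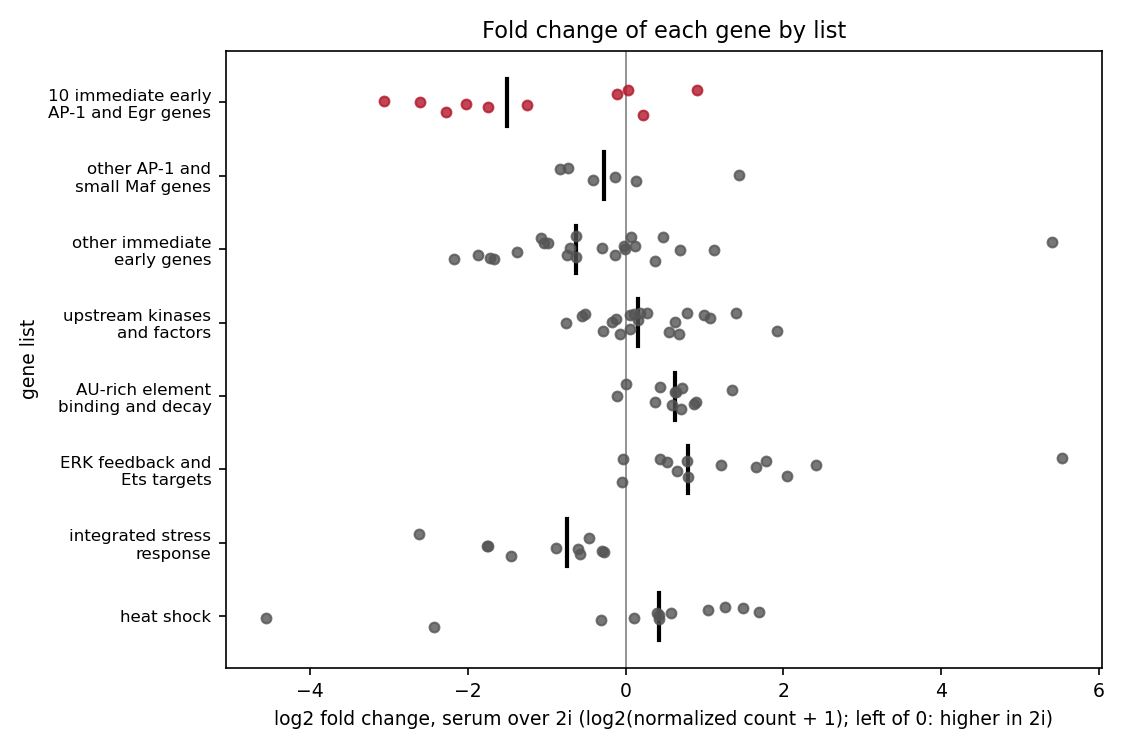
Log2 fold change of each measured gene, serum over 2i on log2(normalized count + 1), for the 10 genes (red) and 7 other lists (grey), with the median of each list as a vertical bar. The median lies at -1.50 for the 10 genes, at 0.80 for ERK feedback and Ets target genes and at -0.74 for the integrated stress response, and Myc and Spry4 lie beyond 5.

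Of 21 kinases and factors that act on such promoters, 6 were higher in both serum libraries and 4 in both 2i libraries, beside 20.5% and 19.4% over all genes. The median was 0.15, with 0.33 without 2i replicate 1, 0.08 without serum replicate 1 and 0.02 with upper quartile scaling. Elk4, an Ets partner of serum response factor, was the highest, with 468 and 416 normalized counts in serum, against 170 and 78.6 in 2i (1.92 ± 0.57 SE, limma adjusted p = 0.754). Crem, a Creb-related factor, was the lowest, with 67.0 and 103 in serum, against 123.5 and 161 in 2i (-0.76 ± 0.64). Serum response factor itself overlapped, with 351 and 323 in serum, against 265 and 400 in 2i.

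Of 12 genes for AU-rich element binding and decay, 5 were higher in both serum libraries and 0 in both 2i libraries, beside 20.5% and 19.4% over all genes. Limma called 0 of the 12, with 0 at an unadjusted p under 0.05, and DESeq2 and edgeR called 0. The median was 0.63, with 0.36 without serum replicate 2, 1.08 without 2i replicate 1, 0.25 without 2i replicate 2 and 0.24 with the GC content and length correction. Hnrnpd, which encodes the AU-rich binding protein Auf1, was the highest, with 2281 and 4119 normalized counts in serum, against 2060 and 698 in 2i (1.35 ± 0.65 SE, limma adjusted p = 0.754). Cnot8, a deadenylase subunit, was the lowest and overlapped, with 1254 and 1164 in serum, against 1102 and 1529 in 2i (-0.10 ± 0.43).

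Some stress genes were highest in the same library as genes of the 10, and their values are given for that reason. The inducible genes Hspa1a, with 12.01 and 28.2 normalized counts in serum, against 220 and 960 in 2i, and Hspa1b were highest in 2i replicate 2, as were Fos and Atf3. Over the 12 heat shock genes the summed normalized counts were 161464 and 265565 in serum, against 122635 and 146721 in 2i. This sum, to which abundant genes such as Hsp90aa1 contribute most, was thus not higher in 2i. Ddit3, like Atf3 a target of Atf4 in the integrated stress response, had 145 and 94.3 in serum, against 1258 and 418 in 2i, and was highest in 2i replicate 1, as were Jun and Ier3. Atf4 itself was highest in 2i replicate 2, at 5276 against 4571 in 2i replicate 1, so genes of this response did not all peak in the same library. The genes named here were picked after their values were seen. The part of cell handling or stress in the values of the 10 genes was not tested.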

How the data were processed

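The authors removed ribosomal RNA, primed at random, aligned reads to mm9 with Bowtie, estimated gene counts with MMSeq and scaled them with DESeq2. The versions are not given in the sources used here. The deposited values are a signal, gene counts divided by a size factor per library (normalized counts). All values were whole multiples of a step (tolerance 0.01), so 100% came out as whole reads. The table has 0 columns without a sample.

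The lists, motifs and sequences, as well as the 10 genes themselves, were chosen with earlier results of these data known. Genes with a mean of at least 50 in either group were tested with limma (version 3.58.1, R 4.3.3, trend) on log2(normalized count + 1), which understates the change of low genes, and p-values were adjusted over all 13005 genes (Benjamini-Hochberg). All 10 genes passed this filter, Fosl2 and Ier3 through 1 group. The description of the series calls the replicates biological, and the labels say no more. With 2 libraries against 2, an exact permutation test cannot give a two-sided p below 0.333. The fit was tried only on simulated data whose replicates varied less than these libraries did. That trial therefore does not show how the fit performs here.

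Named were the 10 genes, the ends of each list, the 3 nearest protein-coding genes of Fos, Jun and Egr1, and other list genes picked after their values were seen. Positions and transcripts came from GENCODE vM1. Alternatives were pseudocounts of 0.5 and 5, no filter, a filter at a mean of 200, scaling by TMM, upper quartiles or quantiles, a block for the replicate number, a GC content and length correction (mgcv 1.9.3), protein-coding genes alone, each library left out, limma without trend, edgeR (4.0.16) and DESeq2 (1.42.0) on whole reads, and, added after the data were seen, Gm11175 added to Jund.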

Additional observations from a re-analysis of the deposited data

How the results depend on the processing

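Fos, Jun, Jund, Ier3 and Atf3 were higher in 2i under every alternative that kept them (the mean of at least 200 dropped Jun and Ier3). For most alternatives this sign was fixed beforehand. The groups of these genes do not overlap, so leaving out a library cannot turn it. A change of filter, gene set, block or trend leaves the limma fold change of a gene as it is. Jund moved to -1.34 with the GC content and length correction, with or without the block. Fosl2, Junb, Egr1, Ier2 and Zfp36 changed sign in at least 1 alternative. The median of the 10 genes ranged from -1.37 to -0.71 when each library was left out. With a mean of at least 200, 5 of the 10 genes were left, and 3 had both 2i values above both serum values. Upper quartile scaling moved the median of all genes to -0.124 and that filter to 0.117, from 0.0047.

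Replicate numbers are shared by the groups, and the replicate differences of serum and 2i correlated across genes (r = 0.480), but 2 pairs do not show a true pairing. The replicate block gave 44 genes called higher in serum and 159 in 2i. Without it, limma called 0 and 2. DESeq2 called 77 and 176. Called higher in 2i were also 4 genes with the mean of at least 200, 1 without trend, and 0 with edgeR, protein-coding genes alone, the GC content and length correction (also with the replicate block) or any library left out (0 to 0). The cause of these differences was not tested. Fosl2 in 2i replicate 2 and Egr1 in serum replicate 1 had only 10 reads each, which limits both. Serum replicate 1 held the most whole reads of the 4 libraries but the lowest share in protein-coding genes, 46.9% against 76.3% in serum replicate 2. Its total therefore overstates its depth for such genes.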

Other observations

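All 10 genes of the integrated stress response list had a mean log2 value that was higher in 2i, and 6 of them were higher in both 2i libraries than in either serum library, beside 19.4% of all genes tested. The median log2 fold change, serum over 2i, was -0.74, with -1.53 without serum replicate 1 and -1.17 without 2i replicate 2. Ddit3, which encodes the death-linked factor Chop, was at the far end (-2.62 ± 0.66 SE, limma adjusted p = 0.754), and Trib3, a pseudokinase induced by it, was the closest to 0, with 886 and 381 normalized counts in serum, against 1004 and 495 in 2i (-0.28 ± 0.61). Atf4, the factor that drives the response, had 3891 and 2799 in serum, against 4571 and 5276 in 2i. Limma called 0 genes of the list, and 2 had an unadjusted p under 0.05. DESeq2 called Ddit3, and edgeR called 0.

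The heat shock list was split. Hspa1a (-4.56 ± 0.93 SE) and Hspa1b (-2.43 ± 0.63) were the 2 of 12 genes that were higher in both 2i libraries, beside 19.4% of all genes tested. In both serum libraries 4 of the 12 genes were higher, beside 20.5%. The highest of these was Hsph1, which encodes a partner of Hsp70, with 2854 and 5923 normalized counts in serum, against 1104 and 1480 in 2i (1.69 ± 0.53, limma adjusted p = 0.754). The near-identical Hspa1a and Hspa1b share reads, so that the split between them is uncertain. Limma called 0 of the 12 genes and edgeR 0, 4 had an unadjusted p under 0.05, and DESeq2 called Hspa1a and Hspa1b.

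Of the primitive endoderm markers, Gata4 had 13.0 and 42.8 normalized counts in serum, against 152 and 169 in 2i (-2.70 ± 0.92, limma adjusted p = 0.754), and Gata6 had 5.003 and 16.5 in serum, against 87.2 and 27.2 in 2i (-2.28 ± 1.66). Sox17 had 7.004 and 7.78 in serum, against 33.2 and 33.0 in 2i, below the level tested. Pdgfra, also below that level, overlapped, with 47.0 and 41.8 in serum, against 60.2 and 27.2 in 2i (log2 0.13).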
